A study of Rattus norvegicus with 12 samples.

Results

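The depletion of RBPMS by siRNA was compared with a control siRNA in the PAC1 line of smooth muscle cells from rat pulmonary artery, over all genes counted. The comparison drew on 6 of the 12 libraries of the series. In 3 of them the cells had received an siRNA against RBPMS and in 3 the scrambled siRNA that the study calls C2, here named control. Per the labels, both groups were reverse transfected with 90 pmol of siRNA, treated again after 24 h and collected 48 h later, while the methods of the study give longer times. The other 6 libraries came from cells treated in the same way with siRNA against RBFOX2 or QKI, in 3 libraries each, and were used where RBPMS knockdown was set directly against another knockdown. All groups were cells of 1 line grown towards its differentiated state, each target was depleted with 1 siRNA, and the study describes the cells of this experiment as less differentiated than those of its companion experiment.

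RBPMS is an RNA-binding protein of differentiated smooth muscle that binds transcripts at pairs of CAC motifs and directs alternative splicing. Smooth muscle cells of the artery wall can move between a contractile state, rich in actin, myosin and calcium-handling proteins, and a state in which they divide, migrate and lay down matrix. The libraries read the abundance of poly(A) RNA, and splicing was not analysed here. In RNA from a bulk culture, fewer cells that hold a transcript and less of it per cell cannot be told apart.

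The sense strands of the siRNAs are shown first, because the siRNA was the only difference in treatment between the groups that the labels give. They were read from the study's list of oligonucleotides, and no letters are set in capitals.
C2: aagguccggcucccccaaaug
RBPMS: ggcggcaaagccgagaaggcgaaca
The C2 strand had 21 bases and a GC content of 61.9%, and the RBPMS strand had 25 bases and a GC content of 64%.

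The targeted gene was checked first, in counts-per-million of the scaled library total (CPM), with edgeR's quasi-likelihood test and Benjamini-Hochberg adjustment over all genes. Libraries are named by group and replicate number. Rbpms was at 39.4, 38.9 and 43.7 CPM in control and at 6.96, 7.11 and 7.54 CPM in RBPMS knockdown. Every knockdown library lay below every control library, and the level fell by 2.50 on the log2 scale (SE 0.0646). The paralogue Rbpms2, whose protein is closely related, was at 38.9, 37.5 and 37.1 CPM in control and at 23.3, 27.3 and 28.0 CPM in RBPMS knockdown. It fell as well (−0.53), and reads shared by the paralogues leave both values uncertain, since how the counting divided them is not known. Of the 26 splicing regulators of the RBPMS, RBFOX, QKI, MBNL, PTB and CELF families that were tested, 9 rose and 12 fell at an adjusted p under 0.05. These are 34.6% and 46.2%, against 30.4% and 29.0% of all genes tested, and the list takes in the target's own family. Khdrbs3, which encodes a STAR family splicing factor, fell by 0.73, and the polypyrimidine tract regulators Ptbp2 and Ptbp3 fell by 0.56 and 0.54. Ptbp1, the widely expressed member of that family, rose by 0.50, and Mbnl2 and Mbnl3, of the muscleblind family, rose by 0.65 and 0.85.

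The 6 libraries held between 111091675 and 151665474 counts. Replicates differed by more than sampling noise in every pair. RBPMS_KD 2 stood apart from the other libraries of its group, with a chi-square per degree of freedom of 57.8 and 45.6 against RBPMS_KD 1 and 3, where the other pairs within the groups lay between 6.09 and 21.5. The genes that passed the test and moved by more than 1 on the log2 scale numbered 1781, or 1749 without that library. Without control 3 they numbered 1624, the lowest number with any 1 library left out. Control 3 differed more from controls 1 and 2 (15.5 and 21.5) than those 2 differed from each other (6.09). For many of the genes named it was the control library furthest from knockdown. It was the lowest for Ccl2 and Ptgs2, which rose, and the highest for Notch3 and Fbln5, which fell. For others, such as Il1rl1 and Nox1, it was the control library closest to knockdown. Smooth muscle markers were present, at a summed level of 5633 to 5778 CPM in control. Summed markers of other cell types were also read. The 8 endothelial markers tested of 12 summed to 34.7 to 39.5 CPM in control and 42.3 to 45.7 CPM in RBPMS knockdown, the 6 leukocyte markers to 1.84 to 2.31 and 2.72 to 3.23 CPM, and the 6 epithelial markers to 41.5 to 42.7 and 53.7 to 61.1 CPM, most of it Krt8 and Grhl2. Most of the endothelial sum was Egfl7, with 2348, 3155 and 2511 counts in control and 2900, 4006 and 3247 in knockdown. Cdh5 went from 788, 1115 and 870 to 541, 777 and 652 counts, and Esam was lower as well. Of the 8, 4 were higher and 2 lower at an adjusted p under 0.05. Ptprc and Tyrobp of leukocytes, Sox17, Emcn and Cldn5 of endothelium, and Krt5, Krt14 and Esrp1 of epithelium were too low to be tested. The part of these markers in the results was not tested.

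Of 18438 genes tested, 10946 differed between RBPMS knockdown and control at an adjusted p under 0.05, or 59.4%. Of all genes tested, 30.4% were higher and 29.0% were lower in knockdown, so a list of genes is read here against those shares. The median log2 fold change over all genes was 0.0085. A gene was counted as changed when it also moved by more than 1 on the log2 scale, which 952 genes did upward (5.16% of those tested) and 829 did downward (4.50%). The genes were grouped in 56 lists and 32 families named after pathways, complexes or protein families, and the count and the median of a list are given as a description of it.

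**Figure D1:**
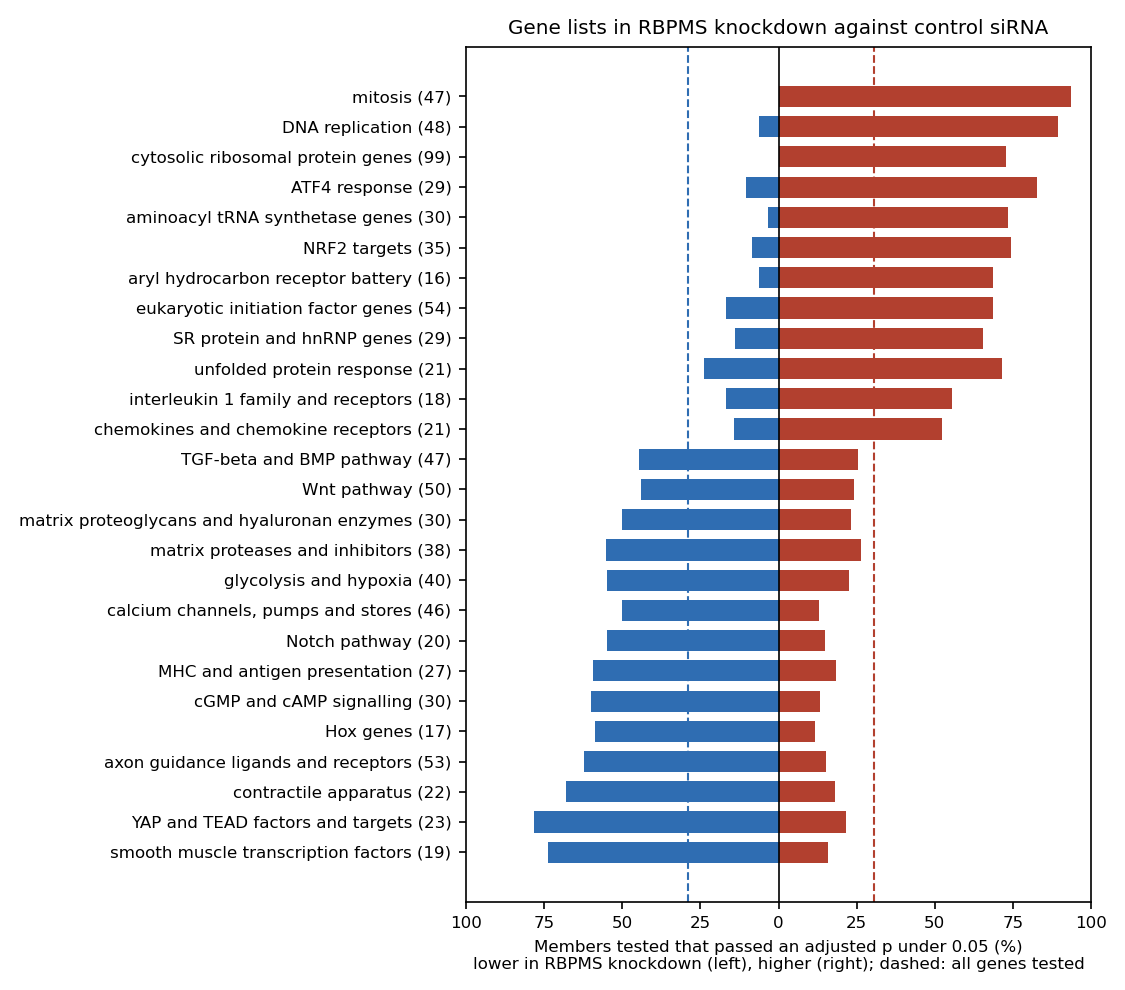
Horizontal bars give, for 26 gene lists and families, the percentage of tested members that were higher (right) or lower (left) in RBPMS knockdown at an adjusted p under 0.05, with the number tested in parentheses and dashed lines at the shares of all genes tested, 30.4% and 29.0%. Mitosis and DNA replication genes lie furthest to the right, with 44 of 47 and 43 of 48 members higher, and YAP, TEAD and their targets reach furthest to the left, with 18 of 23 members lower.

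Most genes of DNA replication and mitosis were higher in RBPMS knockdown, by small steps. Of 48 genes of DNA replication, 43 were higher and 3 were lower, with a median log2 fold change of 0.37. Of 47 genes of mitosis, 44 were higher and none was lower, with a median of 0.35. Of both lists Mcm10 alone rose by more than 1 on the log2 scale. It encodes a factor that brings polymerase to replication origins and rose from control levels of 19.9, 21.1 and 20.1 CPM to 46.7, 43.3 and 46.4 CPM with knockdown (1.16, SE 0.0433, adjusted p 6.53e-13). Pola1, the catalytic subunit of the polymerase that primes DNA synthesis, was at 39.2, 42.6 and 43.9 CPM in control and at 82.5, 74.5 and 78.0 CPM in RBPMS knockdown (0.90). Ccne2, a cyclin of the G1 to S transition, rose by 0.96, Gins1, a subunit of the replicative helicase, by 0.75, and the licensing factor Cdc6 by 0.71. For each of these 5 genes the groups did not overlap. The exceptions to the direction were transcription factors and a cyclin rather than enzymes of the replication fork. Ccne1, the other E cyclin, fell from 43.2, 43.5 and 45.1 CPM to 25.1, 26.9 and 26.3 CPM (−0.75), E2f2 fell by 0.28 and E2f1 by 0.11.

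Among the mitotic genes, Plk4, the kinase that starts centriole duplication, was at 39.7, 39.5 and 41.4 CPM in control and at 75.8, 72.9 and 75.3 CPM in RBPMS knockdown (0.89, SE 0.0340, adjusted p 8.07e-13). Cyclin B1, the partner of Cdk1 at mitotic entry, is encoded by Ccnb1, which was at 141, 139.8 and 137 CPM in control and at 189, 198 and 186 CPM in RBPMS knockdown (0.45). All 3 knockdown libraries were above all 3 control libraries for both. Kif14 and Kif11, motors of cytokinesis and of the spindle, rose by 0.78 and 0.65, and Cdc20, an activator of the anaphase-promoting complex, rose by 0.70. Mki67, the common marker of cycling cells, rose by only 0.17, and its groups overlapped, with 412, 428 and 434 CPM in control and 517, 426 and 492 CPM in RBPMS knockdown. The genes that set entry into the cycle did not share the direction. Of 15 D cyclins, CDK inhibitors and retinoblastoma proteins tested, 4 were higher and 7 were lower. Cyclin D2, encoded by Ccnd2, fell from 26.4, 29.2 and 30.3 CPM to 10.7, 8.41 and 9.24 CPM (−1.60). The inhibitor gene Cdkn2b fell by 1.06 and the retinoblastoma gene Rb1 by 0.82, while Cdk4, the kinase partner of the D cyclins, rose by 0.46. Of 26 p53 targets 8 were higher and 11 lower, with falls of Eda2r, Sesn1, Zmat3 and Ccng1 (−1.52, −0.89, −0.88 and −0.87) and a rise of Gadd45a (1.70).

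Promoters of replication genes that moved together are shown for the letters of the E2F site, TTTNGCGC, read on both strands. Promoter windows run from 250 bases before to 50 bases after the start of the gene and come from RefSeq on the assembly GRCr8, which is not the build of the counts. Capitals mark the match.
Pola1, chrX:62342306-62342605, minus strand: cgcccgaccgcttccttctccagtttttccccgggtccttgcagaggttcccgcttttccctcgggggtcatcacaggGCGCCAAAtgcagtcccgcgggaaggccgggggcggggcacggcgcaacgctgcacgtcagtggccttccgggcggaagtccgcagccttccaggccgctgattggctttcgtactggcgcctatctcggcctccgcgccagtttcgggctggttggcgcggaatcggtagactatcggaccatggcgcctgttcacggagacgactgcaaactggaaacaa
Gins1, chr3:160184670-160184969, plus strand: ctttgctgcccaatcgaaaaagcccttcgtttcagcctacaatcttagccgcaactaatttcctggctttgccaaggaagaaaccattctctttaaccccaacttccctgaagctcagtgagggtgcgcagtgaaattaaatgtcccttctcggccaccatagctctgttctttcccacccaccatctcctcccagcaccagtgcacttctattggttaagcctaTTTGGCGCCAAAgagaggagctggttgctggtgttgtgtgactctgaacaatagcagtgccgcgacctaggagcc
The match in Pola1 began 172 bases before the start and is the reverse complement of the motif, and Gins1 held a match on each strand in 1 overlapping run. Of 38 replication genes with a promoter in the table, 13 held the motif, against 2.12% of the 12931 tested genes with a promoter and 1.37% of all 27457 promoters. The letters TTTGAA of the cell cycle homology region occurred in 28 of 39 promoters of the mitosis list, against 12.9% of tested genes with a promoter and 18.1% of all promoters. A match describes these letters in this window and was not tested for binding.

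**Figure D2:**
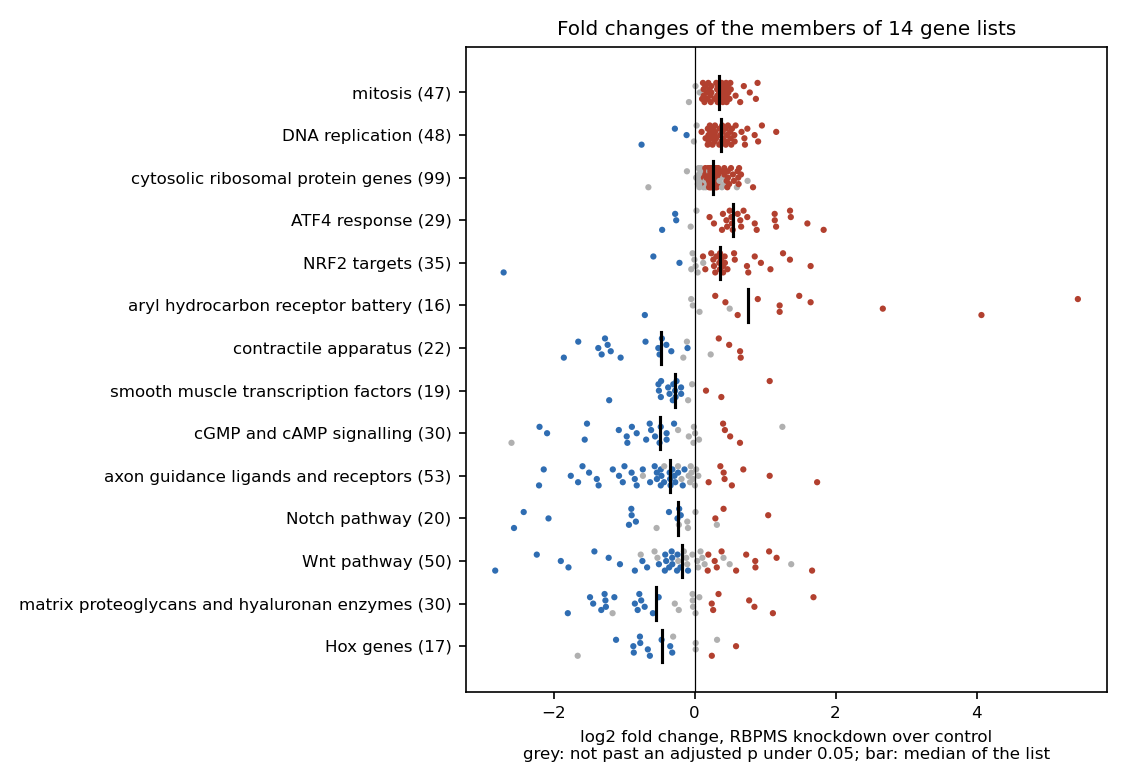
Each point is the log2 fold change of 1 tested member of a list in RBPMS knockdown over control, with red for higher and blue for lower at an adjusted p under 0.05, grey for members that did not pass, and a black bar at the median of the list. The replication and mitosis lists form narrow clouds around medians of 0.37 and 0.35, while the aryl hydrocarbon receptor list reaches 5.44 and the Notch, Wnt and axon guidance lists spread beyond −2.

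Genes of protein synthesis were higher as well. Of 99 cytosolic ribosomal protein genes tested, 72 were higher and none was lower, with a median of 0.26 and no change above 1. The steps were small, and RBPMS_KD 2 was the highest of the 6 libraries for 95 of the 99 genes. Rps6, a protein of the small subunit, was at 905, 897 and 895 CPM in control and at 996, 1181 and 994 CPM in RBPMS knockdown (0.23). Without RBPMS_KD 2, 65 of the ribosomal protein genes were higher. Reads of ribosomal protein genes can also match their processed copies, so the split between copies is uncertain. Of 54 genes named as translation initiation factors, their kinases or binding proteins, 37 were higher and 9 lower, with a median of 0.23. Eif1a and Eif1, which act in start codon selection, rose by 0.84 and 0.73, and the subunits Eif3g and Eif3f of the scaffold eIF3 rose by 0.82 and 0.55. The largest change of the family was Eif2ak2, which encodes the interferon-induced kinase PKR (1.06), and the largest fall was Eif4e3, a cap-binding protein (−0.98).

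The aminoacyl tRNA synthetases, which charge tRNAs with amino acids, were higher in 22 of 30 and lower in 1, with a median of 0.36. Yars1, which charges tyrosine in the cytosol, was at 84.3, 86.3 and 75.7 CPM in control and at 279.6, 301 and 275 CPM in RBPMS knockdown (1.80, SE 0.0470, adjusted p 8.15e-15), and it alone rose by more than 1 on the log2 scale. Nars1 and Wars1, for asparagine and tryptophan, rose by 0.88 and 0.75. The single fall was Iars2, a mitochondrial enzyme (−0.27). Of 29 SR protein and hnRNP genes, 19 were higher and 4 lower (median 0.26). Hnrnpab, an hnRNP of the A/B kind, was at 64.9, 64.7 and 64.9 CPM in control and at 140.2, 150.2 and 139 CPM in RBPMS knockdown (1.14), and Srsf6, an SR protein, rose by 0.76. Of 53 DEAD and DEAH box helicase genes 28 were higher and 12 lower (median 0.14), led by Ddx1 (1.28), and of 47 proteasome genes 27 were higher and 9 lower (median 0.12).

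The stress-response factor ATF4 and most genes of its response rose. ATF4 is the transcription factor that cells make when translation is slowed by the integrated stress response, and its targets supply amino acids and charge tRNA. Of 29 genes of that response, 24 were higher and 3 lower, with a median of 0.54, and 7 rose by more than 1 on the log2 scale (background 5.16%). Atf4 itself was at 208, 211 and 180.0 CPM in control and at 342, 398 and 364 CPM in RBPMS knockdown (0.88, SE 0.0558, adjusted p 4.91e-10). Cth, which makes cysteine from cystathionine, was at 5.31, 6.09 and 4.53 CPM in control and at 19.1, 19.9 and 17.8 CPM in RBPMS knockdown (1.83, SE 0.0824, adjusted p 6.67e-12). Trib3, a pseudokinase that feeds back on ATF4, was at 22.6, 24.5 and 16.5 CPM in control and at 58.4, 68.3 and 66.2 CPM in RBPMS knockdown (1.60, SE 0.104, adjusted p 7.38e-10). The groups were apart for all 3 genes, although control 3 was the lowest control library for each.

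Further members fall under amino acid transport, amino acid synthesis and transcription. The transporter genes Slc3a2 and Slc7a11 rose by 1.14 and 0.85, the serine pathway genes Psph and Psat1 by 0.66 and 0.65, and Asns, asparagine synthetase, by 0.70. The glutathione-degrading enzyme gene Chac1 rose by 1.16 and the mitochondrial folate enzyme gene Aldh1l2 by 1.14. Ddit3, the factor also called CHOP, was at 41.4, 44.7 and 30.5 CPM in control and at 90.2, 113 and 97.3 CPM in RBPMS knockdown (1.37), and Atf3 was at 16.7, 19.1 and 11.0 CPM in control and at 34.2, 42.7 and 42.7 CPM in RBPMS knockdown (1.35). No library of either group overlapped the other for these factors. Members that did not follow were Sesn2 (0.03) and Gdf15 (−0.05), which did not pass the test, and Ddit4, Nupr1 and Vldlr, which fell by 0.46, 0.28 and 0.26.

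Promoters of 2 members with a rise above 1 are shown for the letters TGATGNAAN of the element to which ATF4 binds with C/EBP partners, read on both strands, with the match in capitals.
Trib3, chr3:161275484-161275783, minus strand: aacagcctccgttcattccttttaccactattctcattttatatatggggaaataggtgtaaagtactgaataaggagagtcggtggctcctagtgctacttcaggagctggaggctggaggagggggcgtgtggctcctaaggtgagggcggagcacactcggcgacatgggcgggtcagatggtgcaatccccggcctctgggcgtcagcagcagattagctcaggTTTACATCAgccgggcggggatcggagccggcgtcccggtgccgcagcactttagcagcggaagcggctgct
Chac1, chr3:126795881-126796180, plus strand: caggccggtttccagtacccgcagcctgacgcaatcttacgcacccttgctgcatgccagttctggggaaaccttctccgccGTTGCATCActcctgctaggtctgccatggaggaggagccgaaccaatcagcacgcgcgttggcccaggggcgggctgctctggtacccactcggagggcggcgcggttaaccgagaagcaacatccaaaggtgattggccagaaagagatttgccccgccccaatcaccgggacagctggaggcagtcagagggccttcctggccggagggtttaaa
The matches began 22 and 168 bases before the start, and both are the reverse complement of the motif. Of 27 members with a promoter in the table, 6 held it, against 2.27% of tested genes with a promoter and 3.8% of all promoters. The members with a match included Nupr1, which fell, and Aars1 and Iars1, which rose by 0.46 and 0.54. Aars1 and Iars1 encode aminoacyl tRNA synthetases, so the ATF4 list and that family share members and their counts are not independent.

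The unfolded protein response of the endoplasmic reticulum, which adds chaperones when folding is overloaded, showed 15 of 21 genes higher and 5 lower, with a median of 0.40. Hsp90b1, the chaperone GRP94, was at 1021, 1028 and 900.5 CPM in control and at 2603, 2813 and 2768 CPM in RBPMS knockdown (1.47, SE 0.0480, adjusted p 1.37e-13). Hspa5, the chaperone BiP, was at 1446, 1471 and 1229 CPM in control and at 2377, 2666 and 2583 CPM in RBPMS knockdown (0.88). Both rose without overlap of the groups. Herpud1, a factor of protein degradation at the reticulum, and the sensor Atf6 rose by 1.09 and 1.07. Xbp1, the factor downstream of IRE1, and its degradation targets Edem1 and Syvn1 were among the 5 that fell, by 0.08, 0.22 and 0.27. Of 19 cytosolic heat shock genes 12 were higher and 2 lower, with a median of 0.10, so these steps were smaller.

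Most genes of the aryl hydrocarbon receptor battery were higher. The aryl hydrocarbon receptor is a ligand-activated transcription factor that turns on enzymes of drug and dioxin metabolism. Of 16 genes of its battery 11 were higher and 1 lower, with a median of 0.75, and 7 rose by more than 1 on the log2 scale. Cyp1a1, the cytochrome P450 that serves as its standard reporter, was at 0.245, 0.698 and 0.0881 CPM in control and at 12.5, 16.2 and 17.7 CPM in RBPMS knockdown (5.44, SE 0.275, adjusted p 2.96e-11). The control values came from 30, 104 and 12 counts, so the size of this change rests on few counts and on uneven control libraries, while the groups were far apart. Aldh3a1, an aldehyde dehydrogenase of the battery, was at 2.38, 2.54 and 2.06 CPM in control and at 31.7, 45.2 and 40.3 CPM in RBPMS knockdown (4.07, SE 0.121, adjusted p 4.36e-14). Nqo1, the quinone reductase, was at 414, 449 and 316 CPM in control and at 1062, 1350.3 and 1280.1 CPM in RBPMS knockdown (1.65, SE 0.106, adjusted p 6.17e-10). Tiparp and Ahrr, which encode inhibitors of the receptor, rose by 1.49 and 1.21, and Ahr, the receptor itself, rose by 0.44. Cyp1b1, another P450 of the battery, did not follow, with 1771, 1889 and 1672 CPM in control and 1677, 1650.5 and 1914 CPM in RBPMS knockdown (adjusted p 0.738). Arnt2, a dimer partner related to Arnt, fell by 0.71.

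Genes of the antioxidant factor NRF2 overlapped this battery at Nqo1 and Nfe2l2. Of 35 NRF2 targets 26 were higher and 3 lower, with a median of 0.36. Hmox1, heme oxygenase, was at 128, 142 and 84.0 CPM in control and at 269, 327 and 310.0 CPM in RBPMS knockdown (1.35, SE 0.134, adjusted p 1.34e-07). Txnrd1, thioredoxin reductase, was at 104, 105 and 100.3 CPM in control and at 245, 237 and 256 CPM in RBPMS knockdown (1.26, SE 0.0369, adjusted p 3.73e-14). The knockdown libraries were all above the control libraries for both. The aldo-keto reductase genes Akr1b10 and Akr1b8 rose by 1.08 and 0.94, and Sqstm1, an autophagy receptor, by 0.74. Gclm, the modifier subunit of glutathione synthesis, rose by only 0.12, and Gclc, the catalytic subunit, did not pass (144, 143 and 129.7 CPM in control, 136, 134 and 148 CPM in knockdown). Ephx1, the microsomal epoxide hydrolase, went the other way, from control levels of 32.1, 29.5 and 38.6 CPM to 4.77, 5.29 and 5.25 CPM with knockdown (−2.71, SE 0.0954, adjusted p 3.20e-13). Of 40 glutathione transferase and aldehyde dehydrogenase genes, 17 were higher and 14 lower. Of 29 cytochrome P450 genes, Cyp1a1 included, 8 were higher and 9 lower. Neither group leaned one way as a whole.

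The promoter of Nqo1 is shown for GCGTG, the core of the xenobiotic response element, read on both strands, with the match in capitals.
Nqo1, chr19:52220218-52220517, minus strand: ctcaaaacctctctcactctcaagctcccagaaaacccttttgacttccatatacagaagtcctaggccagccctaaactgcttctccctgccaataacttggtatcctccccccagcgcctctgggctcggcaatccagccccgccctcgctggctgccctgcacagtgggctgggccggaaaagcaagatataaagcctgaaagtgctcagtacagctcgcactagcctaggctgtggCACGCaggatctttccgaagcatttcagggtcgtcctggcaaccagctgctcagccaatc
The match began 10 bases before the start. It is a short motif that occurred in 9 of the 13 promoters of the battery found in the table, against 45.2% of tested genes with a promoter and 31.1% of all promoters.

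**Figure D3:**
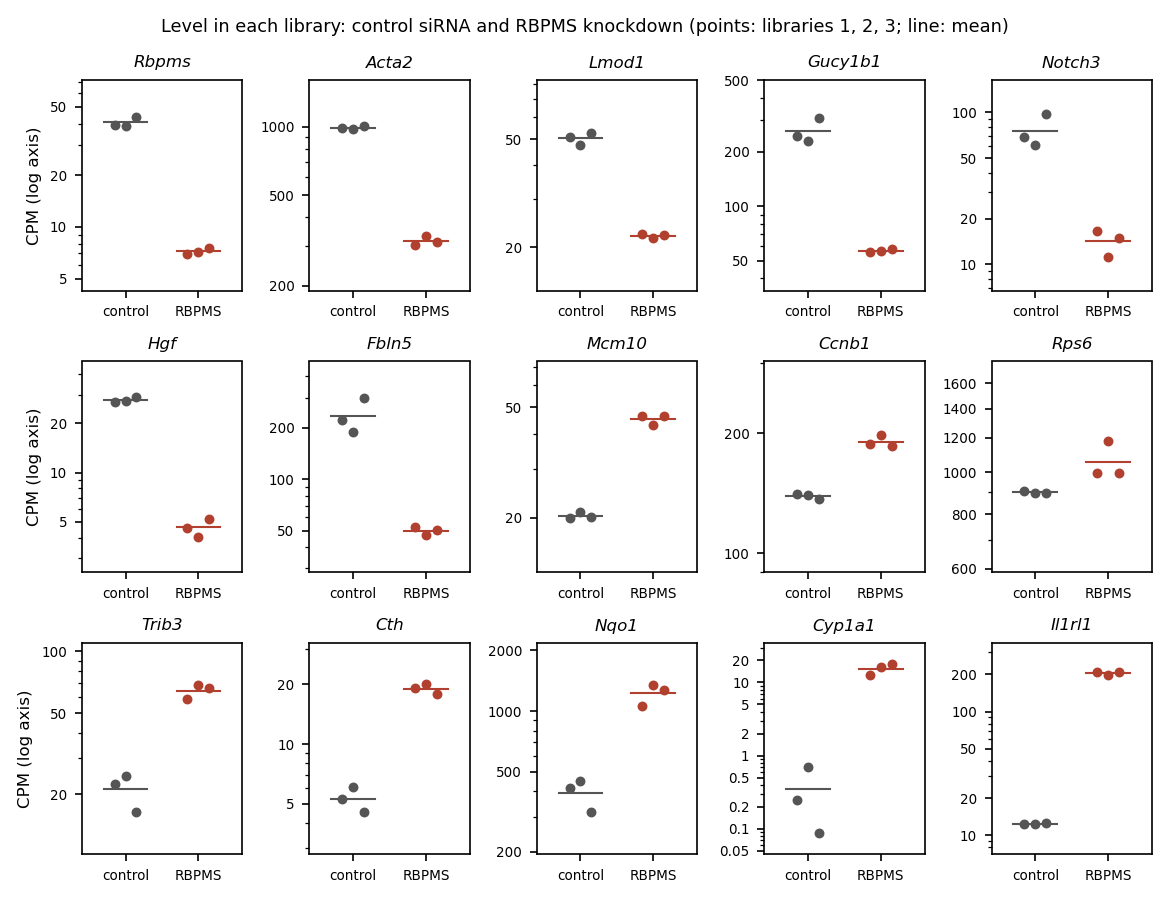
Each panel gives 1 gene in CPM on a log axis, with a point for each of the 3 control and 3 RBPMS knockdown libraries and a line at the mean of each group. The groups do not overlap in any of the 15 panels, with Rbpms between 6.96 and 7.54 CPM in knockdown against 38.9 to 43.7 CPM in control, and Cyp1a1 spread most among control libraries.

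Genes of inflammatory signalling rose in part, and many of them were at low levels. Of 18 genes of the interleukin 1 family and its receptors, 10 were higher and 3 lower (median 0.58), and 6 rose by more than 1 on the log2 scale. Il1rl1, the receptor ST2 for interleukin 33, was at 12.3, 12.4 and 12.6 CPM in control and at 207, 198 and 207 CPM in RBPMS knockdown (4.04, SE 0.0777, adjusted p 2.85e-16). Il1r1, the signalling receptor of interleukin 1, was at 30.1, 30.8 and 29.4 CPM in control and at 69.8, 63.6 and 74.1 CPM in RBPMS knockdown (1.20). Il18rap, an accessory chain of the interleukin 18 receptor, rose by 2.31. Il1rap, the accessory chain that both Il1r1 and Il1rl1 use, fell by 0.77. Of 21 chemokines and their receptors 11 were higher and 3 lower (median 0.84). Of those, 9 reached a mean of 1 CPM, and 5 of the 9 were higher. Ccl2, a chemokine for monocytes, was at 12.2, 14.8 and 8.59 CPM in control and at 59.3, 73.2 and 67.9 CPM in RBPMS knockdown (2.49, SE 0.135, adjusted p 6.80e-11). Cxcl10, an interferon-induced chemokine for T cells, and Cxcl1, a neutrophil chemokine, rose by 1.29 and 1.13. Cxcl12, a chemokine made by stromal cells, fell, from control levels of 700.0, 651 and 825 CPM to 501, 435 and 456 CPM with knockdown (−0.64).

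Ptgs2, which encodes the inducible cyclooxygenase, was at 24.0, 28.1 and 16.6 CPM in control and at 93.9, 91.0 and 107 CPM in RBPMS knockdown (2.09, SE 0.141, adjusted p 1.10e-09), with no overlap. Of the 20 prostaglandin genes 9 were higher and 4 lower. NF-kB pathway genes leaned upward, with 14 of 24 higher and 7 lower (median 0.23), and the feedback gene Tnfaip3 rose by 1.26. Of 28 immediate early genes 13 were higher and 9 lower. Egr1, Egr3 and Arc, genes induced within minutes of a stimulus, fell, with Egr1 going from control levels of 45.3, 41.3 and 51.2 CPM to 21.8, 18.9 and 26.0 CPM with knockdown (−1.05), Egr3 at −1.39 and Arc at −1.94. Myc, which drives growth genes, was at 36.4, 35.6 and 35.8 CPM in control and at 87.4, 87.9 and 88.9 CPM in RBPMS knockdown (1.29), and Fosl1, a Fos family gene, and Ier3, a survival gene, rose by 1.00 and 1.41. Of 29 FGF, HGF and EGF family genes 10 were higher and 9 lower, with a median of 0.07. Ereg and Hbegf, ligands of the EGF receptor, rose by 2.32 and 1.29, while the ligand Hgf of the receptor Met and Fgf1 fell by 2.59 and 1.42.

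The interferon-stimulated genes did not move as a group. Of 49 tested, 16 were higher and 17 lower, with a median of −0.04. Ifi27l2b and Oasl, both induced by interferon, rose by 1.53 and 1.17, and Ifitm3, a membrane protein that restricts viral entry, fell by 1.33. Antigen presentation leaned downward, with 5 of 27 genes higher and 16 lower and a median of −0.37. Nlrc5, the activator of class I genes, fell by 1.21, and Tap1, the peptide transporter, was at 63.6, 67.6 and 65.5 CPM in control and at 36.5, 38.6 and 40.7 CPM in RBPMS knockdown (−0.76). B2m, the light chain of class I molecules, did not pass, at 595, 570.4 and 558 CPM in control and 533, 639 and 578 CPM in knockdown. The RT1 genes, the rat class I and II loci, share sequence, and their values are uncertain.

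Genes of the contractile apparatus were lower. Of 22, 15 were lower and 4 were higher, with a median of −0.48, and 8 fell by more than 1 on the log2 scale against a background of 4.50%. The summed level of the list was 5633 to 5778 CPM in control and 3953 to 4389 CPM in RBPMS knockdown. Acta2, smooth muscle alpha actin, was at 990.3, 973 and 1006 CPM in control and at 303, 330.4 and 313 CPM in RBPMS knockdown (−1.65, SE 0.0555, adjusted p 1.91e-13). Myl9, the regulatory light chain of myosin, was at 313, 292 and 303 CPM in control and at 119.9, 137 and 129.9 CPM in RBPMS knockdown (−1.23). Lmod1, a leiomodin that nucleates actin filaments, was at 50.7, 47.5 and 52.6 CPM in control and at 22.3, 21.7 and 22.2 CPM in RBPMS knockdown (−1.19). Each of these was lower in every knockdown library. Casq2, the calcium buffer of the sarcoplasmic reticulum, and Cnn1, calponin, fell by 1.37 and 1.32. Tagln, Tpm1, Tpm2 and Cald1, which bind or line the thin filament, fell by less than 1 (−0.40, −0.46, −0.50 and −0.70). The 4 that rose were Myh11, smooth muscle myosin heavy chain (0.34), Des, desmin (0.65), Ppp1r14a, an inhibitor of myosin phosphatase (0.65), and the light chain Myl6 (0.49). Myh11 was at 6.72, 6.34 and 6.37 CPM in control and at 8.67, 7.69 and 8.33 CPM in RBPMS knockdown, without overlap of the groups. The strict form of the CArG box, the element that SRF binds (CCWWWWWWGG, with W for A or T), was also searched. None of the 17 promoters of this list in the table held it, against 1.34% of tested genes with a promoter and 1.64% of all promoters. With shares so low, none among 17 tells nothing about SRF sites. Looser forms of the box and sites outside the window were not searched.

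Of 19 transcription factors of smooth muscle 14 were lower and 3 higher, with a median of −0.28. Nr2f2, the nuclear receptor COUP-TFII, was at 164, 155 and 189 CPM in control and at 76.8, 69.4 and 73.8 CPM in RBPMS knockdown (−1.21, SE 0.0615, adjusted p 3.15e-11), the only fall beyond 1. Srf and Mef2c, which drive contractile genes, fell by 0.47 and 0.51. Myocd, the coactivator of SRF, did not fall. It rose by 0.16, with overlapping groups at 22.5, 20.8 and 23.2 CPM in control and 26.4, 22.1 and 25.9 CPM in RBPMS knockdown. Klf4, a factor linked to the loss of the contractile state, was at 113, 108 and 99.4 CPM in control and at 220.1, 225 and 224 CPM in RBPMS knockdown (1.07, SE 0.0459, adjusted p 3.85e-12). Of 23 genes of YAP, TEAD and their targets 18 were lower and 5 higher (median −0.25), led by Tead2 (−1.55) and Ankrd1 (−0.67), whereas Ccn1, a target of the same factors, rose by 0.18.

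Adhesion structures moved in both directions. Of 27 focal adhesion and actin linker genes 8 were higher and 13 lower, with falls of Nexn, nexilin (−1.26), and Fblim1, migfilin (−1.15), and a rise of Flnc, filamin C (1.02). Itgb8 and Itga9, integrin chains, fell by 1.86 and 1.19, and Itgb1, the shared beta 1 chain, by 0.33. Itga5, the fibronectin receptor chain, rose by 0.96. Of 10 caveolins and cavins 5 were higher and 4 lower. Cavin3 and Cavin1, coat proteins of caveolae, rose by 1.88 and 1.25, while Cavin4 and Cavin2 fell by 1.12 and 0.83. In the dystrophin complex, with 4 of 15 genes higher and 7 lower, Sgce and Sgca of the sarcoglycans rose by 1.78 and 1.33, and Dmd, dystrophin, fell by 0.86.

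Signalling that sets vessel tone was lower at more than 1 level. Of 30 genes of cGMP and cAMP signalling 18 were lower and 4 higher, with a median of −0.49, or −0.44 with a gene absent from 1 group set to its bound. Nitric oxide relaxes smooth muscle through soluble guanylate cyclase, whose beta subunit gene Gucy1b1 was at 245, 231 and 306 CPM in control and at 55.5, 56.5 and 58.3 CPM in RBPMS knockdown (−2.20, SE 0.0804, adjusted p 4.90e-13). The alpha subunit gene Gucy1a1 was at 13.9, 12.8 and 23.7 CPM in control and at 4.27, 3.47 and 4.14 CPM in RBPMS knockdown (−2.09, SE 0.185, adjusted p 3.33e-08). Both subunits fell in every knockdown library, and control 3 was the highest library for each. Irag1, the substrate through which the cGMP kinase blocks calcium release, and Pde3a, a phosphodiesterase, fell by 1.53 and 1.56. Npr1, the receptor for atrial natriuretic peptide, and Prkg1, the cGMP kinase, fell by 1.07 and 0.64. The rises were Pde3b, Prkar2b, Npr3 and Pde8a (0.64, 0.51, 0.43 and 0.40).

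Calcium channels, pumps and stores showed 23 of 46 genes lower and 6 higher, with a median of −0.31. Cacna1c, the pore of the L-type channel, was at 7.44, 6.67 and 8.31 CPM in control and at 4.38, 2.92 and 4.19 CPM in RBPMS knockdown (−0.97). Itpr1, the receptor for inositol trisphosphate that releases stored calcium, was at 99.8, 103 and 114 CPM in control and at 60.6, 48.5 and 56.7 CPM in RBPMS knockdown (−0.94). Stim1, the store sensor, fell by 0.88. All 3 fell without overlap, and Cacna1i, a T-type channel, rose by 1.62. The receptors of vasoactive ligands were closer to the background, with 10 of 31 lower and 6 higher. Among them Ednra, the endothelin receptor of smooth muscle, was at 34.0, 32.7 and 42.9 CPM in control and at 16.9, 16.1 and 15.4 CPM in RBPMS knockdown (−1.18), and Ednrb, the other endothelin receptor, was at 1.08, 1.56 and 1.04 CPM in control and at 5.92, 6.42 and 6.81 CPM in RBPMS knockdown (2.37), so the pair moved in opposite directions. Ramp1 and Calcrl, which form the receptor of the peptide CGRP, fell by 2.15 and 1.07. Of 28 potassium channel genes 12 were higher and 10 lower, with a fall of Kcnk2, a stretch-gated channel (−2.09), and of the channel subunit Kcne4 (−1.97) and a rise of Kcnq5, a voltage-gated channel (1.42).

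Signals between cells that pattern tissue were lower in part. Of 53 axon guidance ligands and receptors, a set of ephrins, semaphorins, plexins, slits and netrins that also guide vessels, 33 were lower and 8 higher, with a median of −0.35 and 11 falls beyond 1. Epha3, an ephrin receptor, was at 17.8, 16.7 and 26.0 CPM in control and at 5.36, 3.71 and 4.10 CPM in RBPMS knockdown (−2.21, SE 0.163, adjusted p 3.35e-09). Plxnb1, a semaphorin receptor, was at 28.0, 26.2 and 33.8 CPM in control and at 8.34, 5.70 and 6.03 CPM in RBPMS knockdown (−2.14, SE 0.111, adjusted p 4.19e-11). The groups were apart for both, with control 3 the highest control library for each. Plxnd1, a plexin of vessels, Sema7a, a membrane-bound semaphorin, and Epha7, another ephrin receptor, fell by 1.39, 1.65 and 1.16. Unc5c, a netrin receptor, and Sema3b rose by 1.74 and 1.07.

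In the Notch pathway, through which neighbouring cells keep smooth muscle differentiated, 11 of 20 genes were lower and 3 higher (median −0.23). Notch3, the main receptor of arterial smooth muscle, was at 68.4, 60.6 and 97.7 CPM in control and at 16.4, 11.2 and 14.8 CPM in RBPMS knockdown (−2.42, SE 0.166, adjusted p 1.32e-09). Jag1, its ligand, was at 141, 137 and 151 CPM in control and at 75.7, 71.1 and 78.3 CPM in RBPMS knockdown (−0.93). Hey2 and Nrarp, targets of the pathway, fell by 0.90 and 0.83, while Hes1, another target, fell by 0.22 and Notch2, another receptor, rose by 0.41. Wnt pathway genes counted 22 of 50 lower and 12 higher (median −0.18). Dact1 and Dkk3, modulators of Wnt signals, fell by 1.90 and 1.79, and the receptor genes Fzd6 and Lrp5 by 0.74 and 0.85, while the antagonist Sfrp2 and the receptor Ror1 rose by 1.67 and 1.16. In the TGF-beta and BMP pathway 21 of 47 were lower and 12 higher (median −0.14), with the type I receptor Tgfbr1 up by 0.69 and the coreceptor Eng down by 0.58.

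Hox and T-box genes, which help to keep the positional identity of a cell, leaned downward. Of 17 Hox genes 10 were lower and 2 higher (median −0.47). Hoxb2 was at 24.3, 22.9 and 23.3 CPM in control and at 12.8, 12.9 and 13.0 CPM in RBPMS knockdown (−0.87), and Hoxa4, Hoxa5 and Hoxb3 fell by 0.86, 0.77 and 0.77. Those that rose were Hoxa11 (0.59) and Hoxb4 (0.24). Of 8 T-box genes 5 were lower and none higher. Tbx2, a repressor of that family, was at 9.71, 10.8 and 12.1 CPM in control and at 4.11, 4.38 and 3.68 CPM in RBPMS knockdown (−1.42), and Tbx3 and Tbx15 fell by 0.65 and 0.51.

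Genes of the extracellular matrix moved in both directions. Of 30 proteoglycan and hyaluronan genes 15 were lower and 7 higher, with a median of −0.55 and 8 falls beyond 1. Lum, lumican, was at 49.0, 38.4 and 74.4 CPM in control and at 22.9, 23.0 and 21.4 CPM in RBPMS knockdown (−1.26). Fmod, fibromodulin, and Podn, podocan, fell by 1.26 and 1.80. Acan, aggrecan, was at 2728, 2985 and 2652 CPM in control and at 1523, 1342 and 1787 CPM in RBPMS knockdown (−0.85), and it made up nearly all of the summed cartilage, bone and adipocyte markers, which summed to 2732 to 3069 CPM in control and 1433 to 1886 CPM in knockdown. Sdc1, syndecan 1, rose by 1.69. Elastic fibre genes held some of the steepest falls. Fbln5, which organizes elastin into fibres, was at 221, 189 and 296 CPM in control and at 52.7, 46.8 and 50.5 CPM in RBPMS knockdown (−2.23, SE 0.123, adjusted p 8.46e-11). Eln, elastin, was at 665, 583 and 1038 CPM in control and at 428, 381 and 393 CPM in RBPMS knockdown (−0.93), and Ltbp4 fell by 1.27. In that list of 22, 11 were lower and 6 higher, and Lox, the enzyme that crosslinks elastin and collagen, rose by 1.33.

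Fibrillar collagens were split. Of 14, 5 were higher and 5 lower. Col1a1 was at 7300.2, 7292 and 8388 CPM in control and at 17047, 13915 and 15950.0 CPM in RBPMS knockdown (1.03) and Col1a2 was at 3938, 4069 and 4547 CPM in control and at 9938, 8574 and 9378 CPM in RBPMS knockdown (1.15), so both chains of type I collagen rose, while Col3a1, the type III chain, fell by 0.39. Basement membrane genes were lower in 11 of 23 and higher in 5. Agrn, agrin, Nid1, nidogen, and Col4a5 fell by 1.39, 1.28 and 1.19, while Col4a1 and Col4a2 did not pass (0.01 and −0.11). Among matricellular proteins, with 7 of 19 higher and 8 lower, Thbs1, thrombospondin 1, was at 737, 747 and 851 CPM in control and at 2102, 1782 and 2020.5 CPM in RBPMS knockdown (1.34), and Fn1, fibronectin, fell by 0.85. Of 38 proteases and inhibitors 21 were lower and 10 higher (median −0.17), with falls of Plat, tissue plasminogen activator (−1.20), Mmp15, a membrane-bound metalloprotease (−1.44), and Adamts2, which trims procollagen (−1.03).

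Energy metabolism showed a modest lean. Of 40 genes of glycolysis and hypoxia 22 were lower and 9 higher, with a median of −0.28. Ak4, an adenylate kinase of mitochondria, was at 64.3, 65.7 and 67.2 CPM in control and at 22.0, 21.3 and 21.5 CPM in RBPMS knockdown (−1.60), and Slc16a3, a lactate exporter, Egln3, an oxygen sensor, and Pfkl, a phosphofructokinase, fell by 1.54, 1.16 and 0.70. P4ha2, a collagen prolyl hydroxylase, and Slc2a3, a glucose transporter, rose by 1.73 and 1.71. Of 37 complex I subunit genes 11 were higher and 8 lower, and of 42 genes of the other respiratory complexes 11 and 10, both near the background. Cholesterol synthesis (6 higher and 10 lower of 28) stayed near it as well. Among 281 solute carriers, 76 were higher and 113 lower. Zinc finger genes of the Zfp and Znf series, at 53 higher and 92 lower of 250, leaned slightly downward with a median of −0.09.

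The 15 largest rises and 15 largest falls among genes that averaged 5 CPM or more and had separate groups were read next. The rises began with Cyp1a1, Aldh3a1, Il1rl1 and Gzmb. Gzmb, the serine protease granzyme B of cytotoxic lymphocytes, was at 0.759, 1.16 and 1.06 CPM in control and at 13.6, 17.6 and 13.8 CPM in RBPMS knockdown (3.90, SE 0.135, adjusted p 2.69e-13), while 6 of 12 leukocyte markers, Ptprc and Tyrobp among them, were too low to be tested. Of the 6 tested 1 was higher and none lower, and their summed level was 1.84 to 2.31 CPM in control and 2.72 to 3.23 CPM in knockdown. The marker that rose was Csf1r, a receptor of macrophages, from control levels of 0.457, 0.389 and 0.367 CPM to 0.827, 1.02 and 0.864 CPM with knockdown (1.17). The part of leukocyte RNA in the value of Gzmb was not tested. Sprr1a, a small proline-rich protein of stressed epithelium and muscle, was at 1.32, 1.77 and 1.11 CPM in control and at 10.5, 11.6 and 9.42 CPM in RBPMS knockdown (2.90). Arpc5, a subunit of the Arp2/3 complex that branches actin, was at 59.4, 59.3 and 59.8 CPM in control and at 383, 410.2 and 399.9 CPM in RBPMS knockdown (2.74). Ssr2 and Stt3a, which act in protein entry and glycosylation at the endoplasmic reticulum, rose by 2.44 and 2.37. Chst14 and Hs6st2, which sulfate glycosaminoglycans, rose by 2.27 and 2.24, Olfml3, a secreted protein, by 2.35, and Snx31, a sorting nexin, by 2.35.

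Largest among the falls was Islr, a leucine-rich repeat protein of mesenchymal cells, from control levels of 16.4, 14.6 and 18.5 CPM to 2.35, 2.56 and 2.33 CPM with knockdown (−2.77, SE 0.124, adjusted p 6.35e-12). Ephx1 came next, then Hgf, hepatocyte growth factor, from control levels of 27.0, 27.3 and 28.9 CPM to 4.62, 4.06 and 5.21 CPM with knockdown (−2.59, SE 0.0911, adjusted p 3.20e-13). Nox1, a superoxide-producing oxidase, was at 10.4, 11.1 and 9.82 CPM in control and at 1.67, 1.52 and 2.07 CPM in RBPMS knockdown (−2.58, SE 0.115, adjusted p 5.65e-12). Each of these lay below control in every library. Cp, the copper oxidase ceruloplasmin, fell by 2.46, Podxl2, a sialomucin, by 2.23, and Pcdh20, a protocadherin, by 2.03.

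**Figure D4:**
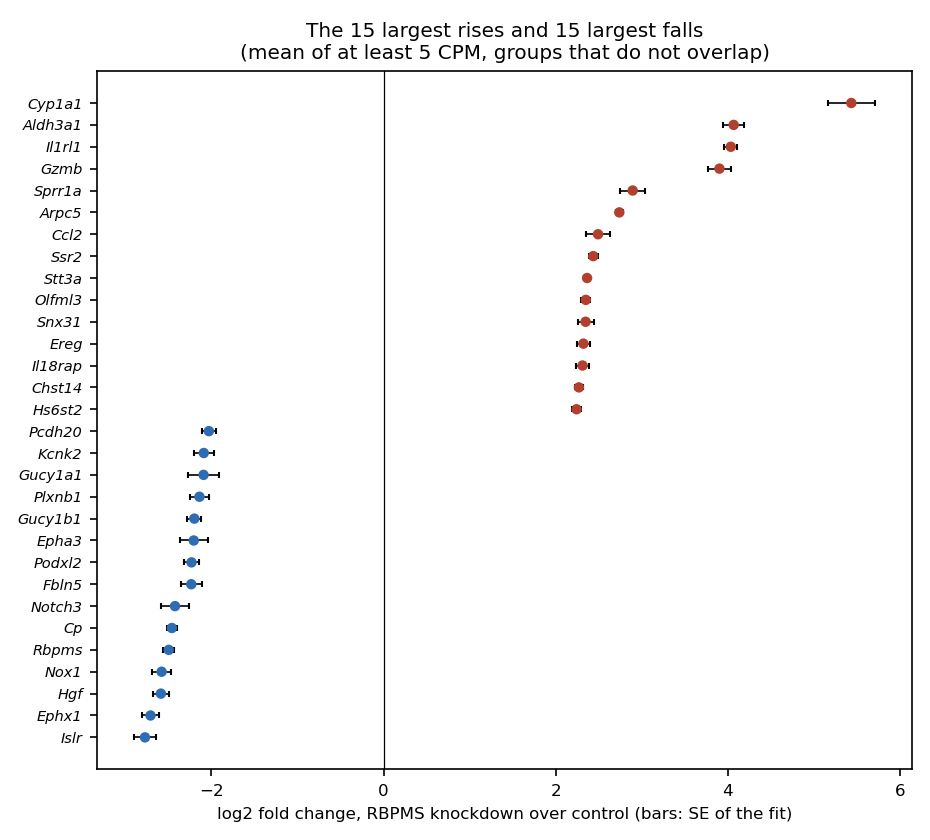
Points give the log2 fold change of RBPMS knockdown over control, and bars its standard error, for the 15 largest rises (red) and 15 largest falls (blue) among genes that averaged 5 CPM or more with groups that do not overlap. Cyp1a1 lies highest at 5.44, Islr lowest at −2.77, and Rbpms is the fifth of the falls at −2.50.

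The same control libraries served the RBFOX2 and QKI knockdowns, so a gene that is high or low in the control libraries moves alike in all 3 comparisons. Several of the top genes stood at like levels in every knockdown. Arpc5 was at 398 ± 13.9 CPM in RBPMS knockdown, 440.1 ± 10.7 CPM in RBFOX2 knockdown and 376 ± 12.7 CPM in QKI knockdown (mean ± SD, n = 3). Stt3a was at 403 ± 5.13 CPM, 398 ± 4.14 CPM and 339 ± 1.75 CPM in the same order, against 78.2 ± 3.28 CPM in control, and Ssr2 was at 263 ± 24.1 CPM, 220.4 ± 0.823 CPM and 269.5 ± 1.99 CPM, against 48.5 ± 0.678 CPM. Il1rl1 was at 204 ± 5.33 CPM, 231 ± 9.33 CPM and 298 ± 41.4 CPM. For such genes an effect of the knockdowns and an effect of the control siRNA cannot be told apart. Of the 30 largest changes, only Gzmb, Ccl2 and Rbpms also differed from both other knockdowns in the same direction by more than 1 in log2. Some moved further from control in QKI knockdown. Means there and in RBPMS knockdown were 53.9 and 15.5 CPM for Cyp1a1, and 11.8 and 56.7 CPM for Gucy1b1. They were 5.82 and 14.1 CPM for Notch3, and 1.73 and 4.63 CPM for Hgf. Others moved less there, such as Pcdh20 (8.76 and 5.29 CPM).

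Set directly against the other knockdowns, the lists divided. Against RBFOX2 knockdown 28.8% of all genes were higher and 27.9% lower in RBPMS knockdown, and against QKI knockdown 32.0% were higher and 29.0% lower. Mitosis genes were higher in 35 of 47 and lower in 1 against RBFOX2 knockdown, and higher in 40 and lower in 1 against QKI knockdown. Replication genes were higher in 39 and in 32 of 48. Of the ATF4 genes 28 of 29 were higher against RBFOX2 knockdown and 23 against QKI knockdown, and of the ribosomal protein genes 90 and 57 of 99. The contractile list did not keep its direction. It was higher in 9 and lower in 6 of 22 against RBFOX2 knockdown, and higher in 10 and lower in 8 against QKI knockdown. Acta2, at 315 ± 13.9 CPM in RBPMS knockdown, was at 229 ± 20.2 CPM in RBFOX2 knockdown and 444 ± 25.6 CPM in QKI knockdown. NRF2 targets were higher in 28 of 35 against RBFOX2 knockdown but in 15, with 8 lower, against QKI knockdown. Interferon-stimulated genes, balanced against control, were lower in 36 of 49 and higher in 6 against RBFOX2 knockdown, but lower in 13 and higher in 21 against QKI knockdown. Axon guidance genes were lower in 25 of 53 and higher in 9 against RBFOX2 knockdown, but lower in 18 and higher in 22 against QKI knockdown. Genes of YAP, TEAD and their targets, mostly lower against control, were close to balanced. Of 23, 10 were higher and 10 lower against RBFOX2 knockdown, and 9 and 8 against QKI knockdown. Of 18 interleukin 1 family genes, 4 were higher and 8 lower against RBFOX2 knockdown, and 5 and 3 against QKI knockdown.

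RBPMS knockdown stood apart from control and from both other knockdowns, in the same direction and by more than 1 on the log2 scale each time, at 94 genes, or 0.510% of those tested. Of these 36 were higher and 58 lower, and 77 had a mean under 1 CPM. The 8 that averaged 5 CPM or more include the target, Gzmb and 2 genes with placeholder symbols. Ptgs2 reached 97.4 ± 8.73 CPM in RBPMS knockdown, against 22.9 ± 5.80 CPM in control, 21.2 ± 1.21 CPM in RBFOX2 knockdown and 28.6 ± 4.95 CPM in QKI knockdown. Klf4 reached 223 ± 2.57 CPM, against 107 ± 6.73 CPM, 108 ± 4.62 CPM and 47.5 ± 2.03 CPM in the same order. Ccl2 was at 66.8 ± 7.01 CPM, against 21.6 ± 1.57 CPM and 28.3 ± 2.76 CPM in the RBFOX2 and QKI knockdowns. Mpp2, a membrane scaffold of the MAGUK family, was the other named gene that fell, from control levels of 10.2, 11.1 and 11.7 CPM to 2.84, 2.44 and 3.08 CPM with knockdown, with 7.39 ± 0.307 CPM and 7.53 ± 0.485 CPM in the other knockdowns. Rbpms was itself lower than control in those, at 23.1 ± 1.90 CPM and 29.0 ± 0.957 CPM.

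**Figure D5:**
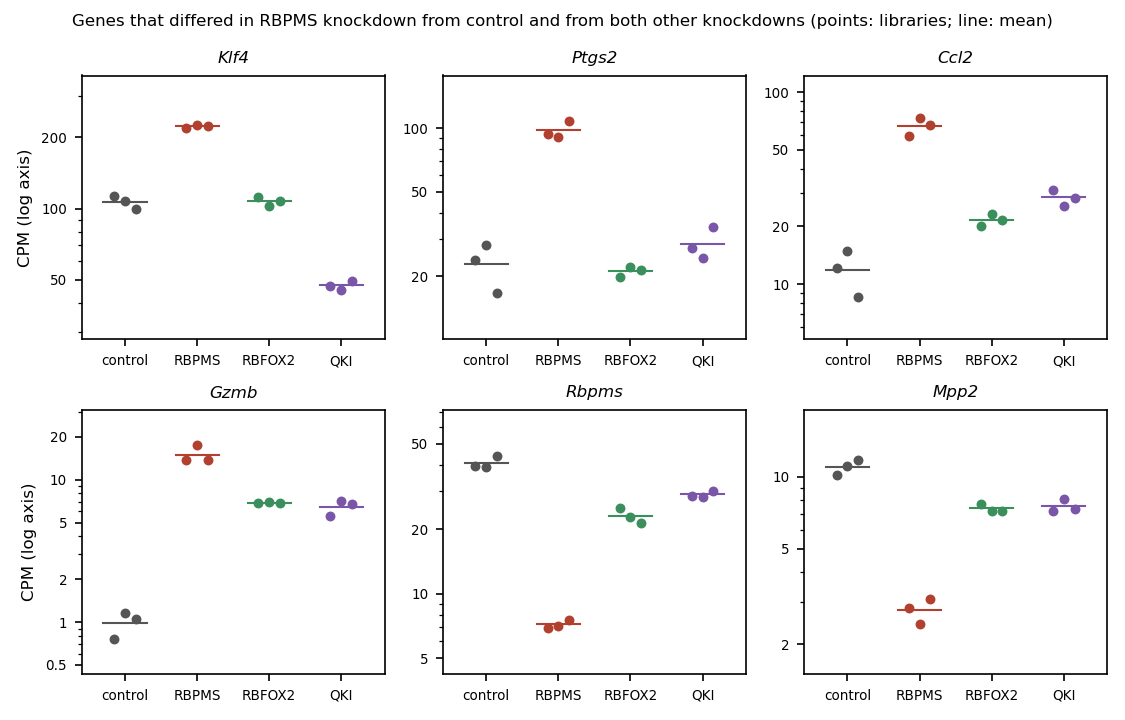
Panels give CPM on a log axis for 6 genes in each library of the control group and the RBPMS, RBFOX2 and QKI knockdowns, with a line at each group mean. In RBPMS knockdown Klf4, Ptgs2, Ccl2 and Gzmb lie above, and Rbpms and Mpp2 below, every library of the other 3 groups.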

How the data were processed

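The authors deposited raw counts for 33294 gene symbols in 12 libraries and a table of quantile-normalised signal covering 22320 of these. By the labels and the methods of the study, poly(A) RNA was sequenced as strand-specific paired ends and aligned with STAR to mRatBN7.2, featureCounts made the counts, and the authors filtered noise and normalised by quantiles for the second table. How reads of similar genes were counted, and whether strand was used, is not given in the sources used here. Totals exceed the depth the study states and small counts are more often even than odd, so counts were also halved as an alternative.

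For the test of counts, edgeR 4.0.16 was run under R 4.3.3 (filterByExpr, TMM scaling, glmQLFit and glmQLFTest, two-sided) in 1 fit of all 12 libraries with 1 coefficient per group, which share 1 estimate of spread (common dispersion 0.00241). The 18438 genes kept held 99.99% of counts. P-values were adjusted by Benjamini-Hochberg over all of them, and changed means an adjusted p under 0.05 and a log2 fold change beyond 1. CPM uses TMM-scaled totals. Where a group held no counts in any library, the bound of its fold change was computed with a floor of 3 counts. The smallest p an exact permutation test could give for 3 against 3 libraries is 0.1, so adjusted p rest on the model. The study calls its replicates biological, and the labels do not tell cultures apart. The test was checked on simulated data with known changes. These were larger than 1 on the log2 scale, in genes with a mean of at least 200 counts and 1 shared spread. The check therefore does not cover smaller changes, genes with few counts or an uneven library. Named genes are the target family, up to 8 members per list with the largest changes (separate groups, mean of at least 1 CPM), the 15 largest rises and falls, the genes apart from the other knockdowns (up to 10 each way), and members a list is known by. The text names 47 genes outside the ranked parts of this rule, as members a list is known by or for contrast, chosen with their values in view. Members, lists and rules were chosen with earlier results of these data known. Alternatives used limma 3.58.1, DESeq2 1.42.0, other scalings, filters and left-out libraries. Promoter sequences and symbols came from RefSeq (GRCr8).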

Additional observations from a re-analysis of the deposited data

Results flagged for a closer look

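Genes that differed in RBPMS knockdown from control and, in the same direction, from both other knockdowns by more than 1 on the log2 scale are given here, by edgeR's quasi-likelihood test of the knockdowns against each other. Those that averaged 5 CPM or more and have a gene symbol that is no placeholder are named. The differences in log2 are RBPMS knockdown minus RBFOX2 knockdown first and RBPMS knockdown minus QKI knockdown second. They were 1.12 and 1.22 for Gzmb (adjusted p 1.58e-07 and 3.76e-08), 1.63 and 1.24 for Ccl2 (adjusted p 1.24e-08 and 1.88e-07), and 2.20 and 1.77 for Ptgs2 (adjusted p 9.95e-10 and 6.44e-09). Klf4 differed by 1.05 and 2.23 (adjusted p 6.68e-12 and 3.09e-16). Its mean was 107 ± 6.73 CPM in control, 108 ± 4.62 CPM in RBFOX2 knockdown and 47.5 ± 2.03 CPM in QKI knockdown (mean ± SD, n = 3). On the lower side the differences were −1.68 and −2.01 for Rbpms, the siRNA target (adjusted p 1.24e-12 and 4.69e-14), and −1.41 and −1.44 for Mpp2 (adjusted p 6.06e-10 and 2.21e-10). For each gene all 3 RBPMS knockdown libraries lay on the same side of all 6 libraries of the other knockdowns. Control 3 was the lowest control library for Ptgs2, Ccl2 and Klf4 and the highest for Rbpms and Mpp2, so for these it lay furthest from RBPMS knockdown. For Gzmb control 1 was the lowest. Groups of 3 libraries are too small for a test of single outlying libraries.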

How the results depend on the processing

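The genes changed in RBPMS knockdown numbered 1781 and those apart from both other knockdowns 94. With a mean of at least 200 counts required, 692 genes were changed (352 higher, 340 lower), 16 were apart (9 higher, 7 lower) and 5 chemokine genes were higher, since fewer genes were tested. Testing whether the log2 fold change exceeds 1 in size left 603 changed (347 higher, 256 lower), since it asks for more than a fold change past 1. All other counts named stayed within 1.5 times their value, with 1612 genes changed in a fit of the 6 libraries alone, 1800 by DESeq2 and 1469 by limma on the normalised table. Leaving out 1 library gave 1624 to 1808 changed genes, 83 to 108 apart, and −2.53 to −2.44 for Rbpms. Replicate numbers did not pair the libraries (correlations of −0.21, 0.088 and 0.033 between deviations of the same number), and with the replicate block 1752 genes were changed (933 higher, 819 lower), 90 were apart and Rbpms stood at −2.50. The block changed no other rerun count by over 1.5 times. The median log2 fold change of all genes, 0.0085, was −0.0011 with RLE size factors and −0.036 with library totals only. Of the 94 genes apart, 77 had a mean under 1 CPM, where few counts limit the values. With 3 libraries per group, control 3 or RBPMS_KD 2 alone can move a value.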

Other observations

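Over all genes tested, 30.4% were higher and 29.0% lower in RBPMS knockdown. Lists and families not counted above are given by their counts, higher and lower at an adjusted p under 0.05 in RBPMS knockdown. Those with more members higher were keratins (6 and 0 of 8), claudins (6 and 1 of 11), serpins (9 and 4 of 22), sulfotransferases and enzymes of glycosaminoglycan sulfation (11 and 7 of 28), tubulins (6 and 2 of 15), TNF superfamily ligands (4 and 1 of 7) and the IGF axis (8 and 5 of 19). Krt80, a filament protein, rose by 0.65, and Krt8 by 0.38, while most other keratins and claudins were under 1 CPM. Serpinb1a, a protease inhibitor, rose by 1.59, and Serpini1, neuroserpin, fell by 1.27. Tubb6, a beta tubulin, rose by 0.70 and Tuba1a, an alpha tubulin, fell by 0.64. Igfbp4 and Igfbp7, which bind insulin-like growth factors, moved apart, with 1.51 and −1.03. Tnfsf12, the ligand TWEAK, rose by 1.86.

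Those with more members lower were fatty acid synthesis (5 and 13 of 23), complement (5 and 9 of 21), ABC transporters (7 and 17 of 40), cadherins (2 and 7 of 15), protocadherins (5 and 11 of 41), integrins (2 and 6 of 19), Sox genes (3 and 5 of 12), Fox genes (8 and 11 of 29), tetraspanins (6 and 9 of 19), ADAMTS genes (6 and 8 of 21), myosin heavy chains (6 and 8 of 26), IL6 family genes (5 and 7 of 20) and MAPK feedback regulators (7 and 10 of 24). For integrins (31.6%), myosin heavy chains (30.8%) and protocadherins (26.8%) the share that was lower was near that of all genes. The remaining counts were PDGF, VEGF and angiopoietin genes (7 and 7 of 19), sphingolipid genes (11 and 9 of 28), retinoid genes (7 and 5 of 18), kinesins (16 and 12 of 36), tripartite motif genes (16 and 12 of 51), S100 genes (4 and 4 of 14), RGS genes (5 and 4 of 15), TNF receptors (5 and 5 of 14) and replication-dependent histones (0 and 2 of 8). Abca3 and Abca2, lipid transporters, fell by 1.15 and 1.49, Cdh13, T-cadherin, fell by 0.94 and Cdh3, P-cadherin, rose by 1.13. Cd55, which restrains complement on the cell surface, rose by 0.50. S1pr1, a receptor for sphingosine 1-phosphate, fell by 1.90, and Ugcg, which makes glucosylceramide, rose by 1.67. S100a10, the partner of annexin A2, rose by 1.17.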
